A study of Mus musculus with 6 samples.

Results

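The genes described here encode the nuclear-encoded subunits of the mitochondrial respiratory chain and of ATP synthase, read in heart ventricles of newborn mice with and without a Cre-dependent loss of Med12. Members were taken by gene symbol, as every Nduf subunit of the a, b, c, s or v series, Sdha to Sdhd, the Uqcr genes, the Cox4 to Cox8 genes, every symbol that begins with Atp5, and the genes for cytochrome c1 (Cyc1) and cytochrome c (Cycs). This gave 84 of the 24062 symbols in the deposited table, 36 of complex I, 4 of complex II, 9 of complex III, 17 of complex IV, 17 of complex V and 1 for cytochrome c. The filter on low counts left 81 of them in the test. Ndufs5, Cox7b2 and Cox8c were left out with at most 3 counts in any library.

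The respiratory chain moves electrons from NADH (through complex I) and succinate (through complex II) to ubiquinone, then through complex III, cytochrome c and complex IV to oxygen. Complexes I, III and IV pump protons across the inner mitochondrial membrane, and ATP synthase, called complex V, makes ATP as the protons flow back. The core of complexes I, III, IV and V also holds subunits encoded in mitochondrial DNA, whose transcripts were not analysed here. Heart muscle is among the tissues richest in these proteins, and several complex IV subunits have a form made mainly in heart and skeletal muscle beside a form made in most tissues. Med12 is a subunit of the kinase module of Mediator, the large bridge between DNA-bound factors and the polymerase that makes mRNA.

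RNA was read from both ventricles of male C57/Bl6N mice on postnatal day 1. The control group (CTL, labelled CreNEG) and the Med12cKO group (labelled CrePOS) had 3 libraries each. Cre was present in the Med12cKO group only, so Cre itself and the loss of Med12 cannot be told apart. The labels name neither the promoter that drives Cre, nor the floxed state of Med12 in the controls, nor the number of animals behind a library. The p-values therefore measure the spread between these libraries, which may be in part technical.

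Depth ran from 8453346 to 10911698 counts per library, and the members took between 3.19% and 4.58% of them. Med12 stood at 103, 176 and 113 CPM in the controls and at 61.6, 85.0 and 41.3 CPM in Med12cKO, where CPM is the count after scaling to library size by the TMM method. Its groups did not overlap, with an edgeR log2 fold change of -1.06 ± 0.30 (SE, adjusted p = 0.765). Defining cardiomyocyte transcripts were abundant in every library. The summed level of the 10 cardiomyocyte markers was between 44033 and 56413 CPM in the controls and between 34086 and 43633 CPM in Med12cKO. These ranges did not overlap, but CTL 3 and Med12cKO 3, at their near ends, were close. Summed thymus T-cell markers stood at 958 CPM in CTL 3 and 963 CPM in Med12cKO 1, against 17.7 to 19.8 CPM in the other 4 libraries.

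No respiratory chain gene passed the test between the groups. By edgeR's quasi-likelihood test with Benjamini-Hochberg adjustment over all 13629 genes tested, 0 of 81 members passed an adjusted p of 0.05, against 3 genes in all, 0.022% of those tested. Without the adjustment, 0 members reached 0.05, and 3.78% of all genes did. DESeq2 called 0 members and 64 genes, 0.539% of those it gave an adjusted p. Control and Med12cKO libraries overlapped in all 81 members, whereas they did not overlap in 8.23% of all genes. A fitted fold change below 0 was found for 56 of 81 members, against 47.8% of all genes.

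Differences were small in every complex. Median log2 fold changes were -0.08 over the 35 tested genes of complex I, -0.07 over the 4 of complex II, -0.01 over the 9 of complex III, 0.08 over the 15 of complex IV and -0.09 over the 17 of complex V. Over all members the median was -0.05, and over all genes tested it was 0.01. The lowest member was Atp5g2 at -0.39 ± 0.34 (SE) and the highest Cox6b2 at 0.43 ± 0.24 (SE, adjusted p = 1.0 for both), each counted at a low level. The median standard error of a member was 0.19, larger than the median difference of any complex. A count of members below 0 is not a count of independent results, because the members moved together from library to library, as the next values show.

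**Figure D1:**
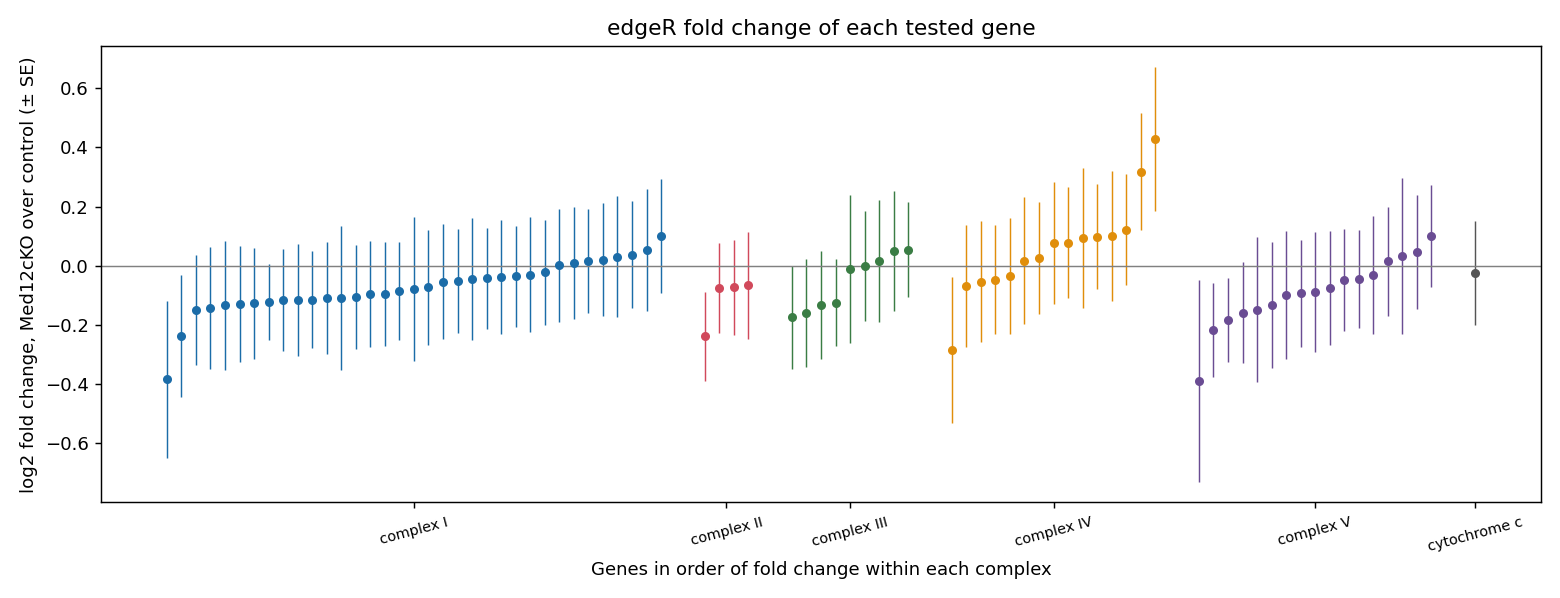
Fitted log2 fold change of each of the 81 tested genes, Med12cKO over control, with its standard error (edgeR, 3 libraries a group), in order within each complex. Most points of complexes I, II and V lie below 0 and 10 of 15 points of complex IV lie above it, while most bars cross 0.

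The chain moved as a block, and it split the Med12cKO group. For each library the median over the 81 members was taken of log2(CPM + 1) minus the control mean of the same gene. It was 0.21, -0.04 and -0.16 in CTL 1, 2 and 3, and -0.24, -0.27 and 0.32 in Med12cKO 1, 2 and 3. Med12cKO 3 was thus the highest library and the other 2 Med12cKO libraries the lowest, on either side of all controls. Single genes did the same. Med12cKO 3 was the highest library for 61 of 81 members, and Med12cKO 1 and Med12cKO 2 were both below every control for 61 of 81. The share of all genes with these orders was not computed. Over all genes tested, the library medians lay between -0.02 and 0.00. The median correlation of a member with the median member was 0.97 over the 6 libraries, and it was at least 0.9 for 69 members. The libraries share depth and scaling, and the median is made from these same genes, so this correlation is a description. Summed levels of 10 markers of brown fat, a tissue rich in these transcripts, were 706, 567 and 493 CPM in the controls and 521, 560 and 680 CPM in Med12cKO, so CTL 1 and Med12cKO 3 were high here too. Most of this sum was Fabp4, which endothelial cells also make. Cidea had the same order of extremes, with 39.6, 37.3 and 32.9 CPM in the controls and 30.9, 29.2 and 46.3 CPM in Med12cKO. Ucp1, the defining gene of brown fat, had another order, with 0.345, 0 and 0.670 CPM in the controls and 3.27, 3.35 and 0.108 CPM in Med12cKO. Library medians over the 7 tested genes of the list were 0.21, -0.04 and -0.01 in the controls and 0.29, 0.34 and 0.08 in Med12cKO. By both measures Med12cKO 1 and 2, the lowest libraries for the chain, were the highest. The part of brown fat in the pattern was not tested. Without CTL 3 and Med12cKO 1, the libraries with thymus transcripts, 0 members were called, 55 of 81 were below 0 and the median was -0.06.

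**Figure D2:**
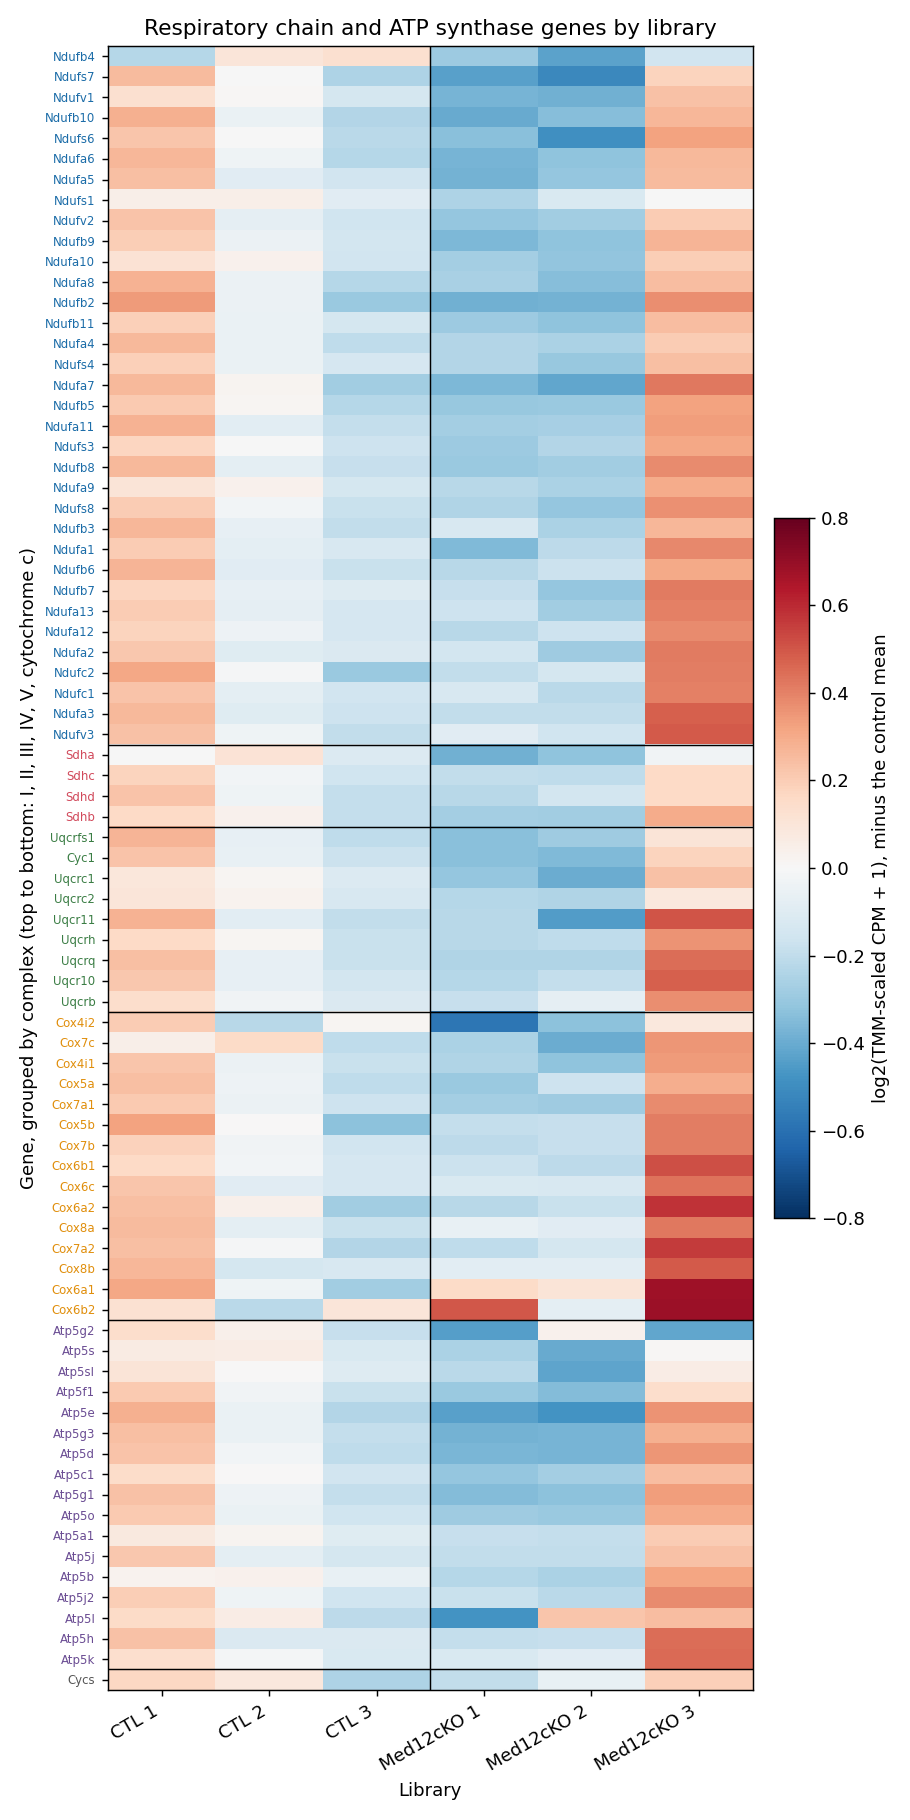
Each row is 1 of 80 tested genes, grouped by complex, and each column 1 library; colour gives log2(TMM-scaled CPM + 1) minus the mean of the 3 controls. CTL 1 and Med12cKO 3 are red in nearly every row and Med12cKO 1 and 2 are blue in nearly every row, with Cox6a1 among the exceptions.

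Gene length moved with this pattern. The median length of the members' merged exons was 977 bp, against 3494 bp for other genes, and 70 of 80 members with a length were under 2000 bp. The 323 other genes of at most 1000 bp had medians of 0.17, -0.08 and -0.08 in CTL 1, 2 and 3, and -0.10, -0.18 and 0.28 in Med12cKO 1, 2 and 3. Genes over 4000 bp had -0.07, 0.08 and -0.03 in the controls, and -0.02, 0.13 and -0.13 in Med12cKO. When the length and GC trend of all genes was removed from each library, the members' medians became 0.06, 0.06 and -0.13 in the controls and -0.21, -0.11 and 0.08 in Med12cKO. Med12cKO 3 then stood only slightly above the highest control. In that fit Ndufs7 and Cox6a1 had unadjusted p-values of 0.0436 and 0.0241, where 5.56% of all genes were below 0.05, and neither passed adjustment. Med12cKO 1 was still below every control, and Med12cKO 2 was within their range.

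**Figure D3:**
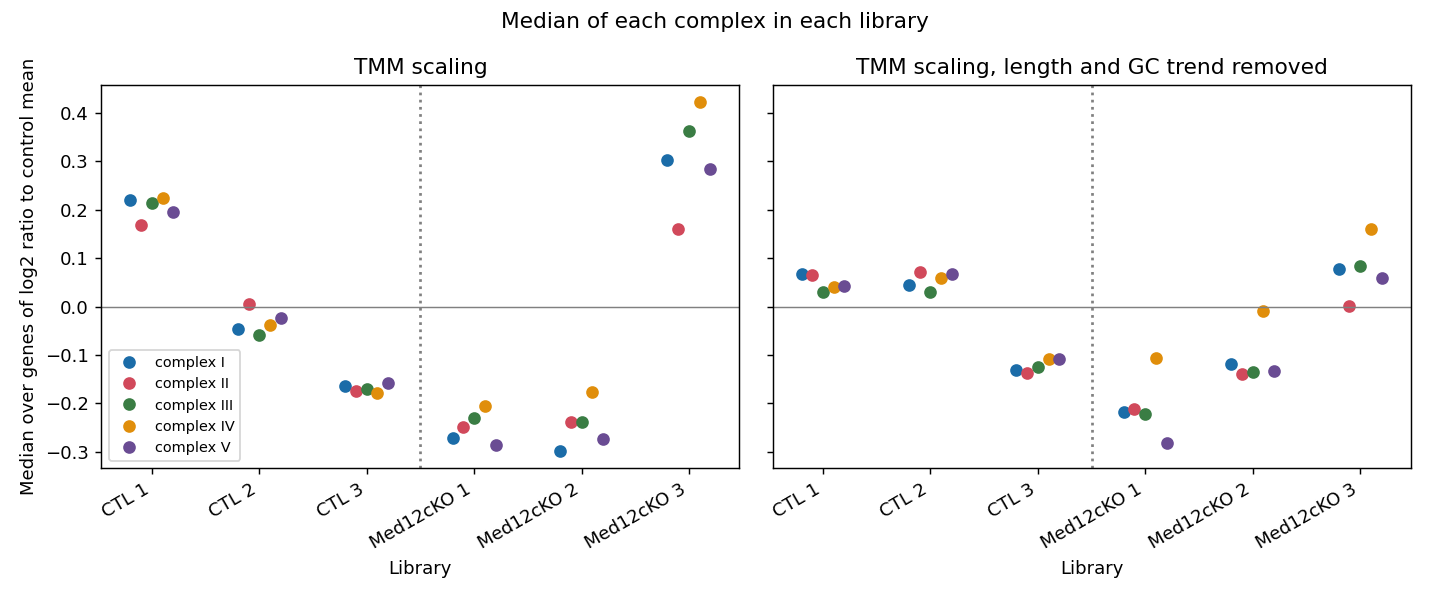
Median over the genes of each complex of the log2 ratio to the control mean, for each library, with TMM scaling alone (left) and with the length and GC trend of all genes removed (right). All 5 complexes shift together in a library, the spread between libraries is smaller on the right, and complex IV lies highest among the complexes in each Med12cKO library.

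Labels carry a letter, J or I, at the start of each library's description, with no statement of what it marks. Within letter J, with 1 library a group, 80 of 81 members were lower in Med12cKO 2 than in CTL 1, and the median difference was -0.45 on the log2 scale. Over all genes tested that median was -0.01, and the share of all genes that were lower was not computed. Within letter I, with 2 libraries a group, 8 of 81 were lower in Med12cKO in the edgeR fit (46.1% of all genes), and the median log2 fold change was 0.16. The direction of the chain as a whole was therefore opposite in the 2 subsets, but letter I was itself split. Med12cKO 1, at -0.24, was below both controls of that letter, as in letter J, and Med12cKO 3, at 0.32, was above both. Cox6a1 and Cox6b2 had unadjusted p-values of 0.0222 and 0.0260 within letter I, where 4.13% of all genes were below 0.05. Summed lung markers were 54.8 and 77.6 CPM in CTL 1 and Med12cKO 2, the libraries of letter J, and at most 0.789 CPM in the other 4. Without Med12cKO 3, 79 of 81 members were below 0 (48.3% of all genes), the median was -0.28, and 19 members had an unadjusted p below 0.05, as did 7.58% of all genes. Of these 19, 10 belonged to complex I, 6 to complex V, 2 to complex III, 1 to complex II and 0 to complex IV. The lowest adjusted p of a member without Med12cKO 3 was 0.585, so none was called (0.00708% of all genes were).

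Promoters of these genes are known targets of a small set of factors, NRF1, GABPA, YY1 and the oestrogen-related receptors (ERR). RefSeq promoter windows, of 250 bases before to 50 after a transcript start on GRCm38.p6, were matched for 69 of 84 members in 75 windows. On either strand, the NRF1 core GCGCATGC was found in 14.7% of member windows, 4.86% of windows of all tested genes and 2.71% of all windows. For the GABPA core CCGGAAG the shares were 21.3%, 16.4% and 8.86%. The ERR core AAGGTCA was found in 10.7%, 3.18% and 4.72%, and the YY1 core AAGATGGC in 16%, 4.09% and 2.75%. The NRF1 core reads nearly the same on both strands, so 1 place can hold overlapping matches. The 250 bases before the start are printed for 3 of the members described below, 5′ to 3′ on the gene's strand, with motif matches in capitals. The Cox6a1 window holds NRF1 matches on both strands, which overlap, and a GABPA match on the reverse strand. That of Cycs holds an NRF1 match that begins 60 bases before the start, and that of Cox7a1 holds none of the 4 motifs. The same stretch of the general forms Cox7a2 and Cox8a and of the muscle form Cox8b also holds none. Of the 12 complex IV windows, 1 holds the NRF1 core, 3 the GABPA core, 0 the ERR core and 0 the YY1 core. A match is a string of letters and not a measured binding site.
Cox6a1 (chr5:115348959-115349208, minus strand): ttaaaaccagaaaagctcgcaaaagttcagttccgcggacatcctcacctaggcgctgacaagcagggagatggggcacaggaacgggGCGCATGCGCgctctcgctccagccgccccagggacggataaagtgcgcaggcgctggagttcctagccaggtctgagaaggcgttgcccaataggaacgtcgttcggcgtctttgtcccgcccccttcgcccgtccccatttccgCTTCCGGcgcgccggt
Cycs (chr6:50566570-50566819, minus strand): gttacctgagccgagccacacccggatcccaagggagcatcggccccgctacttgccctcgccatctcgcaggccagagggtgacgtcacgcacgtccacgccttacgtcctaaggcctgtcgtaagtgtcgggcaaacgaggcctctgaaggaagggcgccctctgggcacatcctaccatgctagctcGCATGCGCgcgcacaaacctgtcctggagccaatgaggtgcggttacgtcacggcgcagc
Cox7a1 (chr7:30183921-30184170, plus strand): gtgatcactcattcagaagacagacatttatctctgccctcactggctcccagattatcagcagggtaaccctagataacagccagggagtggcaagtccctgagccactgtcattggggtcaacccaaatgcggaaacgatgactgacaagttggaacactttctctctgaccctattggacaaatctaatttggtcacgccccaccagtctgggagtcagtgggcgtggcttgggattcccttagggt

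Complex I takes electrons from NADH. Its 7 nuclear-encoded core subunits, the part conserved from bacteria, all had fold changes below 0, with a median of -0.12, and 20 of 28 tested accessory subunits did, with a median of -0.06. Ndufv1, which holds the flavin that takes the electrons, stood at 687, 631 and 569 CPM in the controls and 483, 479 and 738 CPM in Med12cKO. Its log2 fold change was -0.15 ± 0.19 (SE). Med12cKO 1 and 2 were below all controls and Med12cKO 3 above them, which is the pattern of the chain as a whole.

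Ndufs7, which carries the last iron-sulfur cluster before the quinone, was at 209, 174 and 147 CPM in the controls and 129, 122 and 198 CPM in Med12cKO (-0.24 ± 0.21, SE). Ndufs1, the largest core subunit, varied less, with 655, 655 and 595 CPM in the controls and 533, 583 and 634 CPM in Med12cKO (-0.12 ± 0.13, SE). In both genes Med12cKO 3 lay within the control range, so the groups overlapped.

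The largest complex I difference was in Ndufb4, an accessory subunit of the membrane arm, at 3.22, 4.29 and 4.40 CPM in the controls and 3.04, 2.66 and 3.44 CPM in Med12cKO (-0.38 ± 0.27, SE). It had the lowest level per length of the tested complex I genes. Ndufv3, an accessory subunit beside the flavin site, was the highest of the complex at 0.10 ± 0.19 (SE), with 231, 191 and 170.2 CPM in the controls and 183, 175 and 275 CPM in Med12cKO. Ndufa3 and Ndufc1, both accessory, followed at 0.05 and 0.04. Ndufa4 has a complex I name but is now placed in complex IV, and at 1102 CPM per kilobase it had the highest level per length of the genes named for complex I. Its log2 fold change was -0.09 ± 0.18 (SE).

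Complex II, which is also an enzyme of the citric acid cycle, is encoded wholly in the nucleus. All 4 genes were below 0. Sdha, the flavoprotein that oxidises succinate, was at 1289, 1394 and 1195 CPM in the controls and at 989.8, 1032 and 1266 CPM in Med12cKO. Its log2 fold change was -0.24 ± 0.15 (SE, unadjusted p = 0.148), the lowest of the complex, and Med12cKO 3 lay within the control range. The other 3 genes, the iron-sulfur subunit Sdhb and the membrane anchors Sdhc and Sdhd, lay between -0.08 and -0.07.

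Complex III passes electrons from ubiquinol to cytochrome c. Its 4 core members had a median of -0.15 and all were below 0, whereas the 5 accessory members had a median of 0.02. Uqcrfs1, the Rieske iron-sulfur protein, stood at 677, 535 and 486 CPM in the controls and 443, 461 and 601 CPM in Med12cKO (-0.17 ± 0.17, SE). Cyc1 was at 821, 672 and 622 CPM against 554, 548 and 791 CPM (-0.16 ± 0.18, SE). For both, Med12cKO 1 and 2 were below every control and Med12cKO 3 was within the control range. Of the accessory genes, the hinge protein Uqcrh had the highest level of the complex per length, 1493 CPM per kilobase, with a log2 fold change of 0.00 ± 0.19 (SE). Uqcrb had the lowest, 356 CPM per kilobase, and the highest fold change of the complex, 0.05 ± 0.16 (SE). Cycs, the mobile carrier to complex IV, was at 23.8, 22.4 and 17.6 CPM in the controls and 18.3, 20.2 and 24.2 CPM in Med12cKO (-0.02 ± 0.18, SE).

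Complex IV reduces oxygen, and it alone had more members above 0 than below, 10 of 15. The regulatory subunit Cox4i1 stood at 1390.3, 1155 and 1053 CPM in the controls and at 1009, 952 and 1507 CPM in Med12cKO (-0.05 ± 0.20, SE). Cox5a was at 613, 506 and 452 CPM in the controls and 422, 464 and 634 CPM in Med12cKO (-0.05 ± 0.18, SE). Cox4i1 had the order of the chain's median, with Med12cKO 1 and 2 below every control, while Med12cKO 2 was within the control range for Cox5a.

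Cox6a1 encodes the form of subunit VIa made in most tissues. It lies at chr5:115345642-115348981 on the minus strand (GRCm38, GENCODE M21, protein-coding). Its levels were 268, 212 and 178 CPM in the controls and 240.1, 232 and 347 CPM in Med12cKO (fold change 0.32 ± 0.20 on the log2 scale, SE, unadjusted p = 0.143). Its Med12cKO 1 and 2 libraries lay within the control range rather than below it. Cox6b2, a form of subunit VIb known mainly from testis, was at 10.01, 7.72 and 9.85 CPM in the controls and 13.3, 8.58 and 15.3 CPM in Med12cKO. Cox4i2, a form of subunit IV known from lung, had the lowest fold change of the complex at -0.29 ± 0.25 (SE), with 10.6, 7.62 and 9.18 CPM in the controls and 5.75, 7.01 and 9.69 CPM in Med12cKO. The part of the lung transcripts of CTL 1 and Med12cKO 2 in Cox4i2 was not tested. These last 2 forms were the rarest tested members of the complex per length.

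The muscle forms Cox6a2 (chr7:128205435-128206387, minus strand) and Cox7a1 (chr7:30184144-30186078, plus strand) lie apart from Cox7a2 (chr9:79755361-79759878, minus strand) on the same build. Heart muscle shifts from the general to the muscle forms of subunits VIa, VIIa and VIII as it matures. The CPM ratio of Cox6a2, the muscle form, to Cox6a1 was 2.34, 2.58 and 2.45 in the controls and 1.90, 2.02 and 2.29 in Med12cKO. Every Med12cKO library was below every control, and the mean log2 ratio was 1.30 ± 0.07 (SD, n = 3) in the controls and 1.04 ± 0.14 (SD, n = 3) in Med12cKO, a difference of -0.25. The ratio of Cox7a1, the muscle form, to Cox7a2 was 0.303, 0.302 and 0.325 in the controls and 0.295, 0.280 and 0.274 in Med12cKO. These groups did not overlap either, with a log2 difference of -0.13, but Med12cKO 1 at 0.295 and CTL 2 at 0.302 were close. How often the ratios of other gene pairs fail to overlap was not computed, so the 2 pairs are a description. For Cox8b over Cox8a the ratios were 0.550, 0.522 and 0.565 in the controls and 0.536, 0.548 and 0.574 in Med12cKO, and the groups overlapped. So did the groups for Cox4i2 over Cox4i1 and Cox6b2 over Cox6b1. Groups of 3 against 3 allow no exact two-sided permutation p under 0.1, and ratios of CPM between genes of different length are not molar ratios.

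The muscle forms themselves did not separate the groups. Cox6a2 was at 627, 546 and 437 CPM in the controls and 455, 469.7 and 793 CPM in Med12cKO (0.09 ± 0.24, SE), and Cox7a1 at 156, 131 and 120.3 CPM against 111, 111 and 176 CPM (-0.03 ± 0.20, SE). Of the general forms, Cox7a2 was at 515, 432 and 370.0 CPM against 377, 394 and 640.4 CPM (0.10 ± 0.22, SE). In whole ventricle RNA, fewer cells of a type and less RNA per cell cannot be told apart, and the general forms are also made by cells other than muscle. Cardiomyocyte markers, given above, were lower in sum in all 3 Med12cKO libraries, though narrowly so in Med12cKO 3. Their library medians over the 10 genes overlapped, with 0.10, 0.01 and -0.13 in the controls and -0.56, -0.48 and -0.08 in Med12cKO. Summed fibroblast markers were 9606, 8390 and 9191 CPM in the controls and 11113, 11027 and 7152 CPM in Med12cKO, so Med12cKO 3 was the lowest library. Summed smooth muscle markers were 1253, 866 and 707 CPM in the controls and 1406, 2039 and 1248 CPM in Med12cKO, and the 6 genes had a median of 0.59 on the log2 fold change scale. Of these, 1 was called by edgeR, Cnn1, which stood at 34.2, 23.9 and 27.2 CPM in the controls and 74.9, 116 and 84.7 CPM in Med12cKO (adjusted p = 0.0464). Summed skeletal muscle markers, whose tissue also makes the muscle forms, ran from 2169 to 2835 CPM in the controls and were 2459, 2127 and 3325 CPM in Med12cKO. Of its 10 tested genes 9 were above 0, with a median log2 fold change of 1.53 and 0 called. Library medians over these genes were -0.07, 0.07 and -0.22 in the controls and 2.23, 0.32 and -0.05 in Med12cKO. Med12cKO 1 was thus far the highest, and Med12cKO 3 lay within the control range. Casq1 was at 41.7, 65.7 and 32.0 CPM in the controls and 192, 222 and 249.02 CPM in Med12cKO, and Acta1 at 56.0, 51.2 and 39.6 CPM against 232, 86.9 and 109 CPM, without overlap in either. The part of these cell types in the ratios was not tested.

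**Figure D4:**
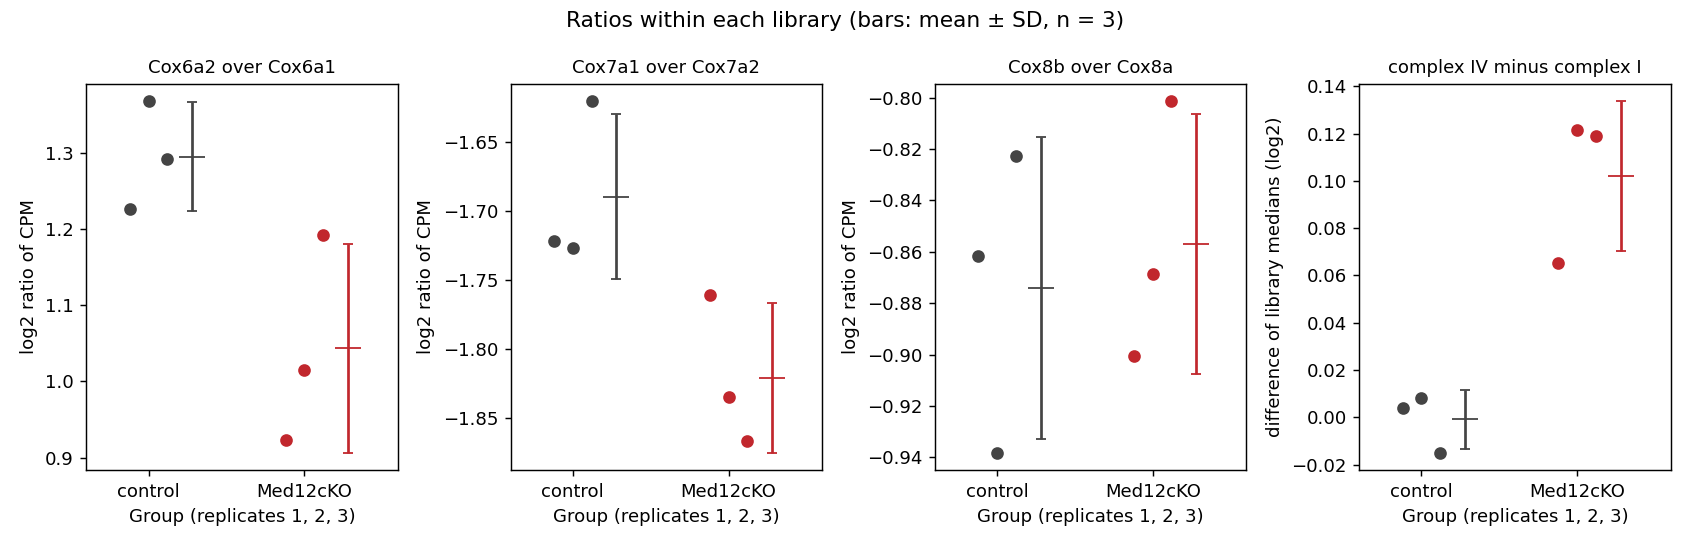
Log2 ratios of CPM within each library for 3 pairs of complex IV forms, and the difference between the medians of complex IV and complex I in each library; points are libraries and bars the mean with SD (n = 3 a group). The Med12cKO points lie below all controls for Cox6a2 over Cox6a1 and Cox7a1 over Cox7a2, overlap them for Cox8b over Cox8a, and lie above them for complex IV minus complex I.

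To set the members against each other, each library's median member was subtracted, a step chosen after the shared shifts had been seen. Complex IV minus complex I, a difference of library medians on the log2 scale, is not changed by this step. It was 0.00, 0.01 and -0.01 in the controls and 0.07, 0.12 and 0.12 in Med12cKO. The group means differed by 0.10, and every Med12cKO library was above every control. This comparison was added after seeing the data. How often differences between other sets of genes fail to overlap was not computed, so it is a description. With the length and GC trend removed, the values were -0.03, 0.02 and 0.02 in the controls and 0.11, 0.11 and 0.08 in Med12cKO.

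On this relative scale 22 of 81 members had groups that did not overlap, against 4.15% of all genes. Higher in Med12cKO were 14 of them (2.86% of all genes), 7 in complex IV (Cox6a1, Cox6b1, Cox6c, Cox7a2, Cox7b, Cox8a and Cox8b), 3 in complex V, 2 in complex III and 2 in complex I. Lower were 8 (1.29% of all genes), 4 in complex I (Ndufs7, Ndufv1, Ndufb9 and Ndufb11), 3 in complex V, 1 in complex III (Cyc1) and 0 in complex IV. The members' own median defines this scale, so their share and that of all genes are not like for like. With the length and GC trend removed as well, 18 members were separated, and the balance turned, to 7 higher (7.34% of all genes with a length) and 11 lower (2.56%). Complex IV then had 4 higher and 0 lower. The 7 higher ones were a share near that of all genes. On both scales 8 members were separated in the same direction, and the share of all genes that did so was not computed. Both scales rest on the same libraries and on the members' own median. Of these 8, the 4 higher ones were Cox6a1, Cox6c, Cox7a2 and Uqcr10, and the 4 lower ones Ndufs7, Ndufv1, Atp5f1 and Atp5g3.

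Of the members whose groups did not overlap, Cox6a1 had the largest relative difference, 0.38, with 0.10, 0.00 and -0.11 in the controls and 0.39, 0.38 and 0.36 in Med12cKO. The edgeR fit on this scale gave it a log2 fold change of 0.38 ± 0.16 (SE, unadjusted p = 0.0441, adjusted p = 1.0, with 1.83% of all genes at an unadjusted p below 0.05), while the median of all genes moved to 0.09. On this scale 0 members were called, against 0.00734% of all genes. For Ndufs7 the relative values were 0.04, 0.03 and -0.08 in the controls and -0.19, -0.24 and -0.14 in Med12cKO.

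ATP synthase joins a catalytic F1 head to a membrane rotor and a stalk that holds the head still. All 5 tested genes of the head were below 0, with a median of -0.09. Atp5b, the catalytic beta subunit, was the most abundant member per length at 3162 CPM per kilobase. It stood at 6239, 6259 and 5875 CPM in the controls and 5228, 5129 and 7624 CPM in Med12cKO (-0.03 ± 0.20, SE). Atp5a1, its alpha partner, had 4167, 4007 and 3692 CPM against 3472, 3468 and 4548 CPM. In both, Med12cKO 1 and 2 were below and Med12cKO 3 above every control.

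The c ring of the rotor is encoded by 3 genes whose mature proteins are the same. Atp5g3 dominated, at 1774 CPM per kilobase against 76.5 for Atp5g1 and 3.32 for Atp5g2. Their log2 fold changes were -0.13, -0.09 and -0.39. The stalk and membrane genes were divided, 3 below 0 and 4 above, from Atp5f1 at -0.16 ± 0.17 (SE) to Atp5k at 0.10 ± 0.17 (SE). Atp5s and Atp5sl carry ATP synthase names but are not structural subunits of the enzyme. Their log2 fold changes were -0.22 ± 0.16 and -0.18 ± 0.14 (SE).

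Several members share sequence with other genes, and their levels are given with that share. The share of a transcript's 50-base windows that match a transcript of another gene with at most 2 mismatches was computed on GENCODE M21. It was 100% for Atp5g2, 69.1% for Atp5l, 54.2% for Cox7c, 50.7% for Cox5b, 49.1% for Ndufs5, 37.0% for Ndufb4 and 32.4% for Cycs. Their levels were 3.32, 13.9, 61.9, 78.6, 0.027, 3.62 and 6.75 CPM per kilobase in that order. The median of the 43 members with less than 5% of such windows was 392 CPM per kilobase. It was 541 for the 13 members with 5% to 25%, 342 for the 15 with 25% to 45% and 82.9 for the 12 with 45% or more. Ndufs5, a structural subunit of complex I, had 1 count in all, in Med12cKO 2, and 0 in the other 5 libraries. A count of 0 allows up to 3 counts, which is 0.275 to 0.355 CPM at these depths, for counting error only. Ndufs3 with 74.5%, Atp5h with 72.0% and Atp5o with 59.7% of windows shared were counted at 98.3, 416 and 921 CPM per kilobase. How reads that match several places were counted is not given in the sources used here, so the levels of these genes, Cox6a1 with 42.1% among them, are uncertain to that extent, and the part of shared sequence in the low levels was not tested. Low or zero levels also occurred with 0% of windows shared, in Cox4i2, Cox6b2, Cox7b2, Cox8c and Atp5s.

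**Figure D5:**
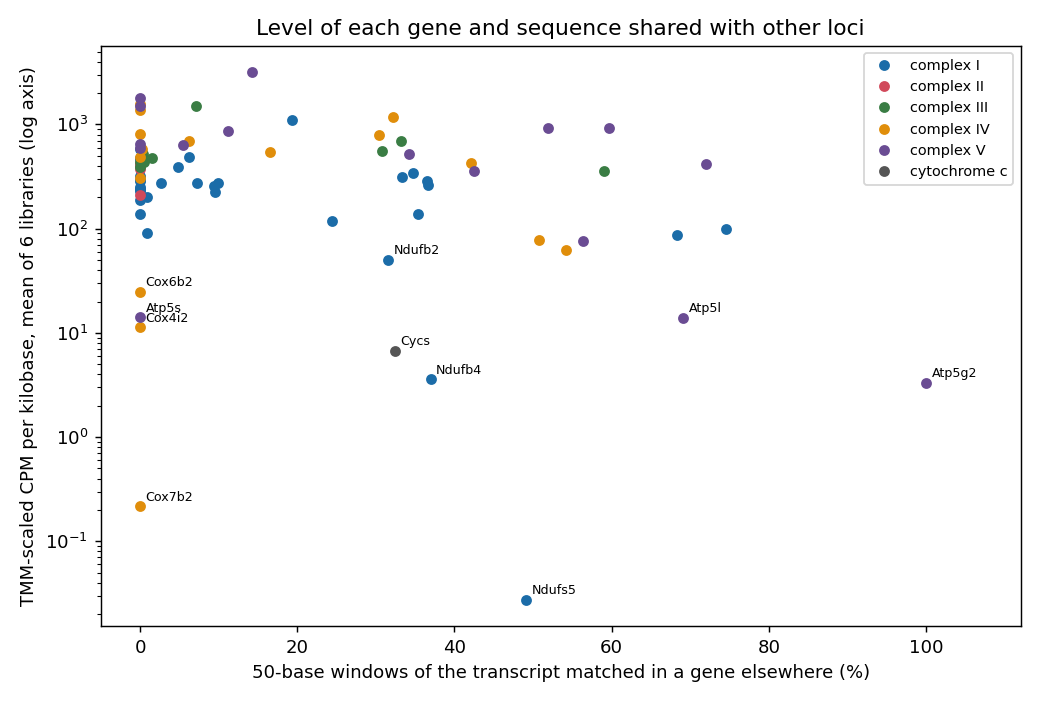
Level of each gene as TMM-scaled CPM per kilobase (mean of 6 libraries, log axis) against the share of its transcript's 50-base windows matched in another gene. Genes below 60 CPM per kilobase are named; Ndufs5, Ndufb4, Atp5g2, Atp5l and Cycs combine low levels with shared sequence, while Cox7b2, Cox4i2, Cox6b2 and Atp5s are low with none.

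Other genes of mitochondrial energy metabolism were read in the same fit, and 0 of them were called. Of 42 tested assembly factors, which build the complexes, 29 were below 0 with a median of -0.04. All 15 citric acid cycle genes were below 0, with a median of -0.11, and 9 of 10 genes for carriers and porins of the mitochondrial membranes, with a median of -0.09. No gene of these lists had an unadjusted p under 0.05. The library medians of the carriers were 0.18, 0.01 and -0.18 in the controls and -0.25, -0.25 and 0.21 in Med12cKO, and those of the cycle 0.10, 0.02 and -0.13 against -0.21, -0.21 and 0.11. Both lists thus had the pattern of the chain, with Med12cKO 3 apart from the other 2. The 15 regulators, which include Nrf1, Gabpa, Esrra and Ppargc1a, had nearly level library medians. These were -0.06, 0.08 and 0.00 in the controls and -0.07, -0.06 and -0.07 in Med12cKO. Single regulators ranged in log2 fold change from -0.37 to 0.29. Their median log2 fold change was -0.09, with 12 of 15 below 0.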

How the data were processed

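Total RNA was sequenced from 6 ventricle libraries. The authors deposited raw read counts per gene symbol; per the submitters' processing notes, TopHat2 2.0.0, featureCounts and edgeR 3.14.0 were used with GRCm38 (mm10). Strand setting and the treatment of multiply mapped reads are not given in the sources used here. Groups came from the titles. Members and lists were chosen with earlier results of these data known. Within a group, libraries differed by more than counting error (chi-square over its degrees of freedom at least 14.5 for every pair), so each was treated as 1 replicate. That check cannot tell separate animals from separate preparations of the same tissue.

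Groups were compared by the quasi-likelihood F test of edgeR 4.0.16 (R 4.3.3) with TMM scaling and robust dispersions, on genes kept by filterByExpr (minimum count 10, minimum total 15), with Benjamini-Hochberg adjustment over all genes tested. On simulated data the test recovered 18% of 1.5-fold and 76% of 2-fold changes, with 19 false calls. Standard errors are log2 fold changes over the square root of F. Level values are TMM-scaled CPM, divided by the median length of the gene's basic GENCODE M21 transcripts where given per kilobase, and ratios use a pseudocount of 1 CPM. Copies were searched with blastn 2.17.0. Genes named with values were the catalytic core, paired isoforms, up to 3 of the largest differences per direction and complex, the highest and lowest levels per length, and misnamed genes. Other genes were named after their values were seen: those lacking overlap on the relative scale, those chosen for shared sequence, 3 brown fat markers, Myh3 and Myh8. Alternatives were DESeq2 1.42.0, limma-voom (limma 3.58.1), other scalings and filters, blocks, subsets by letter, a length and GC correction, and leaving out libraries. One tested gene is not reported here by name or drawn in the heatmap, and it stays in the counts.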

Additional observations from a re-analysis of the deposited data

How the results depend on the processing

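No member was called under any of the alternatives run. Over all genes, DESeq2 called 64 where edgeR called 3. The libraries with letter I gave 2 members with an unadjusted p under 0.05 (Cox6a1 and Cox6b2), as did the removal of the length and GC trend (Ndufs7 and Cox6a1). Leaving out 1 library gave 0 to 19 such members, 19 without Med12cKO 3. Members below 0 numbered 8 within letter I and 23 to 79 with 1 library left out, 23 without CTL 1, 31 without Med12cKO 1, 30 without Med12cKO 2 and 79 without Med12cKO 3. Within letter I the median log2 fold change was 0.16 over all members, 0.15 for complex I, 0.10 for II, 0.19 for III, 0.31 for IV and 0.12 for V. With 1 library left out these medians ranged from -0.28 to 0.052, from -0.29 to 0.042, from -0.25 to 0.019, from -0.25 to 0.092, from -0.21 to 0.20 and from -0.30 to 0.018, the lowest without Med12cKO 3. The cause was not tested. Removing the length and GC trend, a choice made after seeing the data for the library medians, brought Med12cKO 3 to 0.082. Complex IV minus complex I, also added after seeing the data, stayed between 0.093 and 0.12 with 1 library left out, and was 0.10 with Ndufa4 counted in complex IV. Cox6a2 over Cox6a1 kept its direction, with a log2 difference of -0.33 to -0.19.

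Same-numbered libraries of the groups had correlations of deviations of -0.31, 0.44 and -0.35, so the numbers did not pair them. With the replicate block, 0 members were called, 62 were below 0, the median was -0.07, and 2 genes were called in all. With 3 libraries a group, differences of the size seen here, mostly under 0.2 on the log2 scale, are near the standard errors of single genes. Atp5b, the most deeply counted member, had a standard error of 0.20 beside a median of 0.19 over all members.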
